A study of Homo sapiens with 6 samples.

Results

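The E2F and DP transcription factor genes were followed in Y79, an established human retinoblastoma line, after targeting of MYCN. The family was taken as the 10 gene symbols E2F1 to E2F8, TFDP1 and TFDP2, all of which had a row among the 17013 genes with values, and all 10 had enough counts to be tested. Y79 cells carried either a control shRNA (3 libraries) or a MYCN-targeting shRNA (3 libraries), and the labels give the genotypes as MYCN wild-type and MYCN knockdown, both in batch 1. The series text calls the replicates of each condition biological and independent, with harvest under identical conditions, and RNA was poly(A)-selected and sequenced from both ends. The line descends from 1 tumour, and neither the number of hairpins nor the time after transduction is given in the sources used here. Estimated counts summed to 15490263 to 16078416 per library.

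E2F proteins bind DNA next to cell cycle genes, and E2F1 to E2F6 do so as pairs with a DP protein, encoded by TFDP1 or TFDP2. E2F1, E2F2 and E2F3 activate transcription until RB1 binds and silences them, E2F4 and E2F5 repress together with the RB1 relatives RBL1 and RBL2, E2F6 represses through polycomb complexes without binding RB1, and E2F7 and E2F8 repress without a DP partner or a pocket protein. Retinoblastoma usually starts with loss of RB1 from retinal cells, and Y79 is known as a line without functional RB1. The brake by RB1 on the activating E2F proteins is therefore taken as missing in both groups, although RB1 protein was not measured. The comparison asks how the transcripts of activating and repressing factors differed in that setting when MYCN was targeted.

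Promoter sequences are shown for 5 members because several E2F genes are known to be controlled by E2F proteins themselves. Each line gives the 150 bases before the RefSeq start site (GRCh38.p14), read 5′ to 3′ on the strand of the gene, with matches to an E2F motif in capitals. The motif was searched on both strands as the 8-base words TTTCCCGC, TTTGGCGC, TTTCGCGC and TTTGCCGC and as the 7-base words that lack the first T, which lie inside them. E2F1, E2F2 and E2F7 lie on the minus strand at chr20:33686386-33686535, chr1:23531234-23531383 and chr12:77065570-77065719, and E2F3 and E2F4 on the plus strand at chr6:20401729-20401878 and chr16:67192005-67192154.
E2F1: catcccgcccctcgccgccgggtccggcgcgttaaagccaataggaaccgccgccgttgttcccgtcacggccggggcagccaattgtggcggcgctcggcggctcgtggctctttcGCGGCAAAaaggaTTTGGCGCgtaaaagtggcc
E2F2: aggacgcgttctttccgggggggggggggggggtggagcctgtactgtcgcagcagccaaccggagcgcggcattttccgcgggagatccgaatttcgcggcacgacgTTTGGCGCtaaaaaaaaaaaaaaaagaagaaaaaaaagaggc
E2F3: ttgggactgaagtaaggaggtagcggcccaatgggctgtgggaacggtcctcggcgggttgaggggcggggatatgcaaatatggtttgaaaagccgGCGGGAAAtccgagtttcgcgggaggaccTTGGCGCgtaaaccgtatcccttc
E2F4: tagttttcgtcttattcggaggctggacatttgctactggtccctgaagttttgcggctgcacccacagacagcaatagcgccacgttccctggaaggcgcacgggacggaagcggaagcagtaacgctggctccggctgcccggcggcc
E2F7: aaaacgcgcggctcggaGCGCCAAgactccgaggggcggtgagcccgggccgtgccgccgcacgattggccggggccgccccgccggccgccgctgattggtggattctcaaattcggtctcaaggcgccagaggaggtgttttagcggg

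An 8-base match lay in a window of 4 of the 8 members that the RefSeq table holds, namely E2F1, E2F2, E2F3 and TFDP1, where windows ran from 250 bases before to 50 bases after the start. The same words occurred in 3.31% of all 35116 windows of that length. Shares of all windows count windows and not genes, and the 8 members had 11 windows between them. In E2F1 both words lay close together, starting 33 and 20 bases before the start site. E2F2 had 1 word, starting 42 bases before it, and the upstream promoter of E2F3 had 1, starting 53 bases before it. A 7-base match was found in 6 members, now with E2F6 and E2F7, against 13.0% of all windows. E2F4 and TFDP2 held neither. The MYC-type E-box CACGTG occurred in 7.26% of all windows and in 1 member, E2F3, in the second of its 2 windows. These matches describe letters in a window and not binding. E2F5 and E2F8 have no entry in the table.

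The hairpin check and the state of the line were as follows. MYCN fell from 3017 ± 128 to 2297 ± 110 CPM (SD, n = 3), where CPM are counts scaled to library depth with TMM factors. The log2 fold change was -0.39 ± 0.043 (SE, edgeR quasi-likelihood test, adjusted p = 8.9e-11), and -0.21 with library sizes alone (adjusted p = 2.4e-05). With TMM this was a 1.31-fold fall, and 23.4% of tested genes had a lower log2 fold change than MYCN. All 10 photoreceptor precursor markers were detected, 8 called higher and 2 lower, with a summed level of 2134 to 2218 CPM in controls and 2040 to 2079 CPM with the MYCN hairpin. That sum was mostly OTX2, a factor of photoreceptor fate, which went from 1078 ± 26.0 to 679.5 ± 9.40 CPM, and AIPL1, while the median log2 fold change of the list was 1.42 and THRB, a cone factor, rose by 2.45. Photoreceptor markers thus also differed between the groups, as did 75.8% of all tested genes, and their part in the results was not tested. Fibroblast markers summed to 2.22 to 2.67 and 5.12 to 6.43 CPM, and blood cell markers to under 2 CPM in every library. Of 3 fibroblast markers tested, 2 were called higher and 0 lower: COL1A1 rose from 50 to 137 counts per group and COL1A2 from 19 to 93. Only 6 of 7 listed fibroblast markers had a row, and 5 of 7 each for blood cells and pigment epithelium. Pigment epithelium markers, with TYRP1 at 0 in every library, summed to 3.61 to 3.80 and 11.2 to 13.2 CPM. Of 3 pigment epithelium markers tested, 2 were called higher and 0 lower: RPE65 rose from 11 to 235 counts per group and BEST1 from 111 to 293. Of 7 Müller glia markers, RLBP1, AQP4 and GFAP had 0 to 2 counts in every library, while GLUL and VIM, which many cells express, made up most of a sum of 1150 to 1195 CPM in controls and 1175 to 1207 CPM with the MYCN hairpin. Within that sum VIM rose by 0.68 and GLUL fell by 0.35 on the log2 scale, SLC1A3 was not called, and DKK3 rose from 9 to 158 counts per group. The part of other cell types in the results was not tested, and fewer cells of a kind cannot be told apart from less RNA per cell.

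In all, 9 members of the family differed between the groups, with 7 higher and 2 lower. E2F7 rose 3.51-fold and E2F8 1.95-fold, E2F2 fell 2.13-fold, and the other called changes were at most 1.25-fold. Across the 12819 genes tested, 75.8% were called at an adjusted p under 0.05, 38.0% higher and 37.9% lower, so that 9 of 10 called members lies near what a gene in these data shows. Control and MYCN hairpin values were fully separate for 8 members, against 76.8% of all tested genes. The median log2 fold change was 0.18 over the 10 members and 0.00 over all tested genes.

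**Figure D1:**
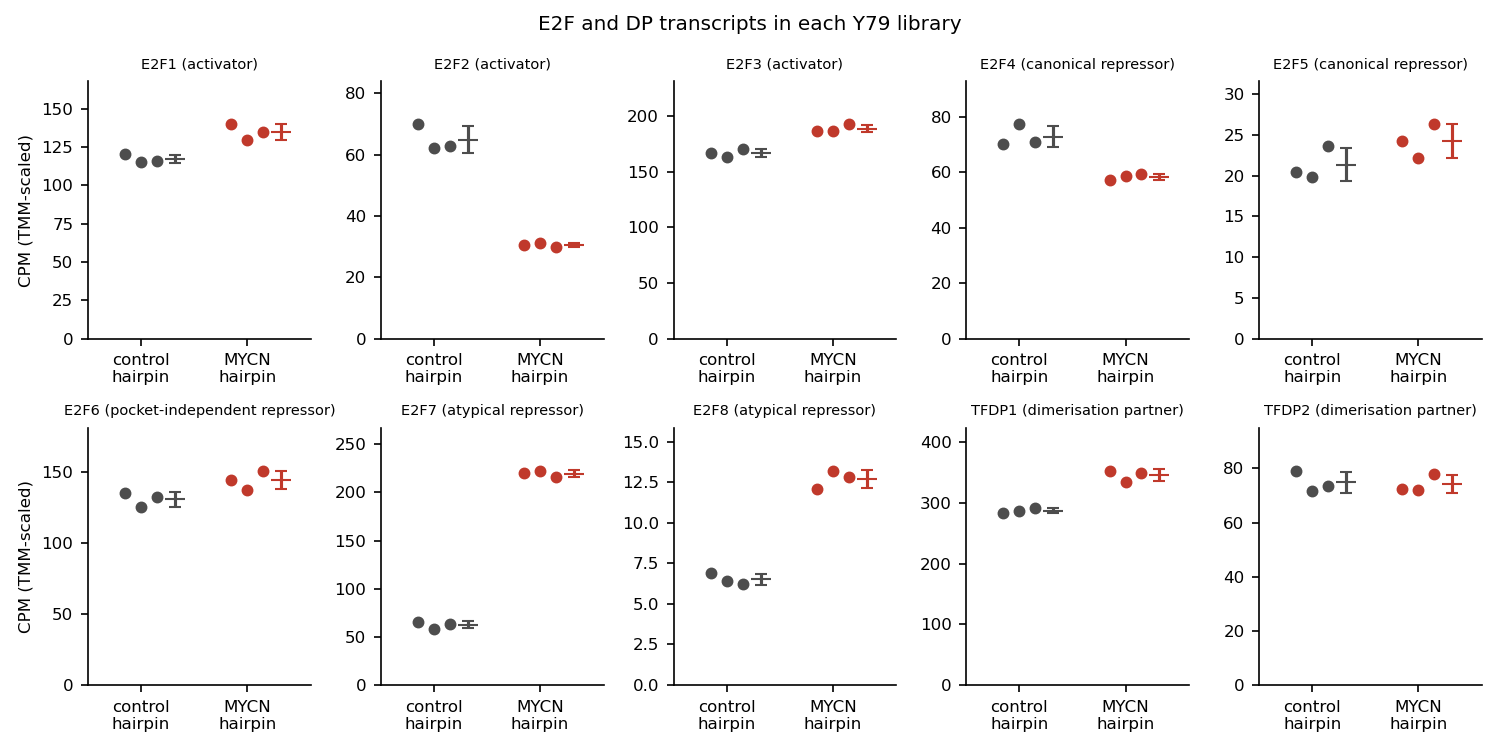
TMM-scaled CPM (y axis, from 0) of the 10 E2F and DP genes in 3 control hairpin libraries (grey) and 3 MYCN hairpin libraries (red), with mean and SD beside the points. E2F7 and E2F8 are high and E2F2 and E2F4 low in all 3 MYCN hairpin libraries, while the groups overlap for E2F5 and TFDP2.

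Among the activators, E2F2 fell while E2F1 and E2F3 rose slightly. E2F2 (chromosome 1, 23506430 to 23531220, minus strand, GRCh38, GENCODE 29), an activator linked to S phase entry, measured 69.8, 62.1 and 62.7 CPM in control replicates 1, 2 and 3 and 30.5, 31.0 and 30.0 CPM with the MYCN hairpin. All 3 MYCN hairpin libraries lay far below the lowest control, and their spread was narrow. The mean went from 64.9 ± 4.32 to 30.5 ± 0.524 CPM (SD, n = 3), and the log2 fold change of E2F2 was -1.09 ± 0.058 (adjusted p = 1.8e-20). Only 4.34% of tested genes had a lower log2 fold change.

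E2F1 (chromosome 20, 33675683 to 33686404, minus strand), the founding member and a link between proliferation and apoptosis, measured 120.5, 115 and 116 CPM in controls, against 139.7, 129 and 134 CPM with the MYCN hairpin. The groups did not overlap, although the gap between the highest control and the lowest MYCN hairpin library was small. E2F1 rose by 0.20 ± 0.043 on the log2 scale, a 1.15-fold change (adjusted p = 5.7e-05). E2F3 (chromosome 6, 20401906 to 20493715, plus strand) lies in a region often gained in retinoblastoma and makes a long and a short protein from separate promoters. It measured 167, 163 and 171 CPM in controls, against 186, 187 and 192 CPM with the MYCN hairpin. Again every MYCN hairpin library was above every control, by a small margin, and the log2 fold change was 0.17 ± 0.039 (adjusted p = 1.1e-04). Counts per gene do not separate the products of the 2 promoters of E2F3.

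The classical repressors went in different directions. E2F4 (chromosome 16, 67192169 to 67198918, plus strand), the main partner of RBL1 and RBL2 in resting cells, measured 70.4, 77.4 and 71.1 CPM in controls, against 57.2, 58.7 and 59.4 CPM with the MYCN hairpin. The MYCN hairpin libraries were all below the controls, and E2F4 fell by 0.32 ± 0.051 on the log2 scale (adjusted p = 3.9e-07). E2F5 (chromosome 8, 85177225 to 85217158, plus strand), its closest relative, measured 20.5, 19.9 and 23.6 CPM in controls, against 24.3, 22.2 and 26.3 CPM with the MYCN hairpin. The groups overlapped, since control replicate 3 exceeded MYCN hairpin replicate 2. The log2 fold change of E2F5 was 0.19 ± 0.077 (adjusted p = 0.0276), and the call was lost without control replicate 1 (adjusted p = 0.116), control replicate 2 (0.146), MYCN hairpin replicate 1 (0.0559) or MYCN hairpin replicate 3 (0.195), and with DESeq2 (0.0947). E2F5 overlaps 2 genes on the opposite strand, the protein-coding C8orf59 among them, and it was the only member with fractional counts in all 6 libraries. E2F3 overlaps 3 genes, 2 of them on the opposite strand, and TFDP2 overlaps 2, a processed pseudogene on the same strand among them. TFDP2 had fractional counts in 2 libraries and E2F3 in 0. The source of these fractions was not tested.

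E2F6 (chromosome 2, 11444375 to 11466177, minus strand), which lacks the part of the protein that binds pocket proteins, rose slightly. It measured 135, 125 and 132 CPM in controls, against 145, 138 and 151 CPM with the MYCN hairpin, without overlap. The log2 fold change was 0.14 ± 0.043 (adjusted p = 0.00331). GENCODE lists 4 processed pseudogenes named after E2F6, 2 after E2F3 and 1 after E2F4, which could share reads with them.

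The atypical repressors rose together. E2F7 (chromosome 12, 77021247 to 77065580, minus strand), which represses E2F1 and other G1/S genes and is itself a known target of E2F1 and p53, measured 65.3, 58.3 and 63.9 CPM in controls. It reached 220.3, 222 and 216 CPM with the MYCN hairpin. The MYCN hairpin libraries thus formed a tight group far above the controls, with means of 62.5 ± 3.71 and 219 ± 3.46 CPM (SD, n = 3). The log2 fold change of 1.81 ± 0.045 (adjusted p = 7.0e-32) exceeded that of 96.8% of tested genes.

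E2F8 (chromosome 11, 19224063 to 19241620, minus strand), which pairs with E2F7 and with itself, was the scarcest member. It measured 6.89, 6.40 and 6.24 CPM in controls, against 12.1, 13.2 and 12.8 CPM with the MYCN hairpin, from 291 and 632 counts over the 3 libraries of each group. No MYCN hairpin library came near the controls, and E2F8 rose by 0.96 ± 0.108 on the log2 scale (adjusted p = 1.4e-10). An antisense gene overlaps E2F8, and without a stated strand setting reads from the overlap cannot be told apart. No E2F8 count was fractional, and neither was any of E2F3, which overlaps 3 genes. Whether reads were shared was not tested.

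Of the DP partners, TFDP1 rose and TFDP2 did not pass the test. TFDP1 (chromosome 13, 113584721 to 113641470, plus strand), the common partner of E2F1 to E2F6, measured 283, 287 and 291 CPM in controls, against 353, 334 and 349 CPM with the MYCN hairpin. The groups were clearly apart, with a log2 fold change of 0.27 ± 0.038 (adjusted p = 4.7e-08). TFDP2 (chromosome 3, 141944428 to 142149544, minus strand) measured 79.1, 71.8 and 73.6 CPM in controls, against 72.2, 72.1 and 78.0 CPM with the MYCN hairpin. These ranges overlapped fully, and the log2 fold change was -0.01 ± 0.050 (adjusted p = 0.812).

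The size of the smaller changes depends on scaling. When only library sizes were scaled out, the median of all tested genes moved from 0.00 to 0.19 on the log2 scale, 51.5% of genes were called higher and 26.1% lower, and every member shifted upward by about that amount. E2F1, E2F3 and E2F6 then stood at 0.38, 0.36 and 0.32, E2F4 at -0.14, and TFDP2 turned from -0.01 to 0.17 and was called higher (adjusted p = 0.00322). E2F2 (-0.91), E2F7 (1.99) and E2F8 (1.14) kept their direction and call. Over all genes 4865 were called higher and 4858 lower with TMM, and 66.3% of calls were higher with library sizes alone.

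**Figure D2:**
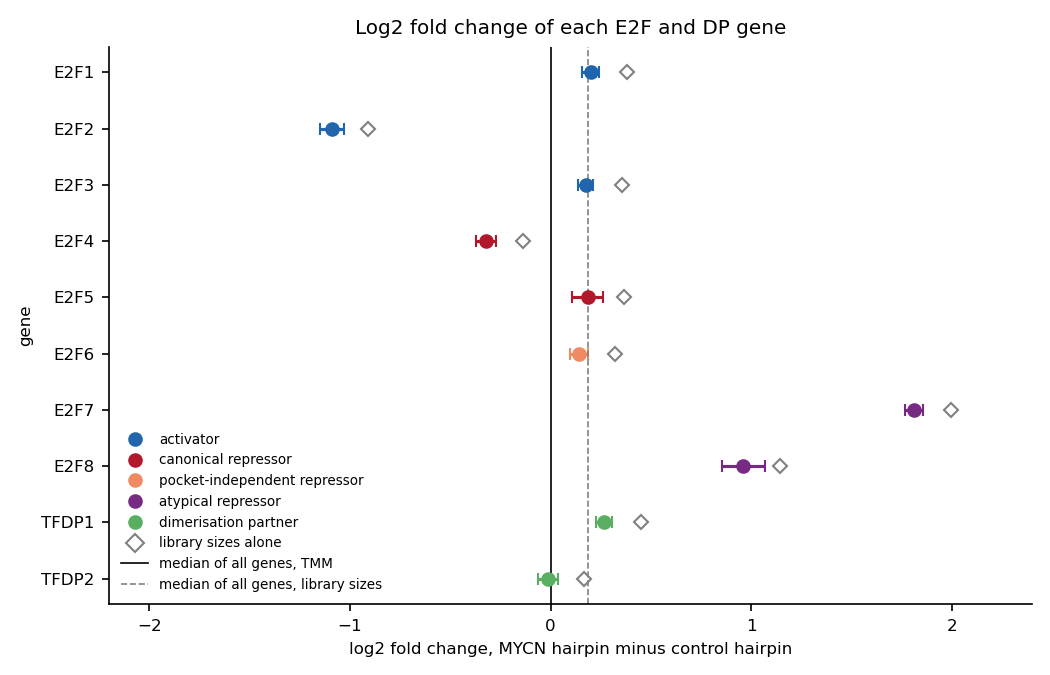
Log2 fold change (x axis, MYCN hairpin minus control) of each member, with SE bars and colours for its class; open diamonds give the value with library sizes alone, and vertical lines the median of all tested genes under each scaling. E2F7 at 1.81 and E2F8 at 0.96 lie to the right, E2F2 at -1.09 to the left, and the others between -0.32 and 0.27.

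Levels of different genes were compared per kilobase of 1 protein-coding transcript each. In controls TFDP1 stood highest at 108 ± 1.59 CPM per kilobase (SD, n = 3), followed by E2F1 at 46.8 ± 1.16, E2F6 at 40.6 ± 1.63, E2F3 at 35.2 ± 0.748, E2F4 at 34.8 ± 1.83 and TFDP2 at 31.7 ± 1.61. E2F2 (12.5 ± 0.832), E2F5 (12.3 ± 1.17) and E2F7 (10.9 ± 0.646) formed a lower group, and E2F8 was last at 1.85 ± 0.0966. The libraries of neighbours in this order overlapped only for E2F3 with E2F4 and for E2F2 with E2F5. With the MYCN hairpin no neighbours overlapped: E2F7 stood at 38.2 ± 0.603 CPM per kilobase, between E2F3 and TFDP2, and E2F2 at 5.87 ± 0.101, between E2F5 and E2F8. E2F7 moved from rank 9 to rank 5 and E2F2 from rank 7 to rank 9.

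**Figure D3:**
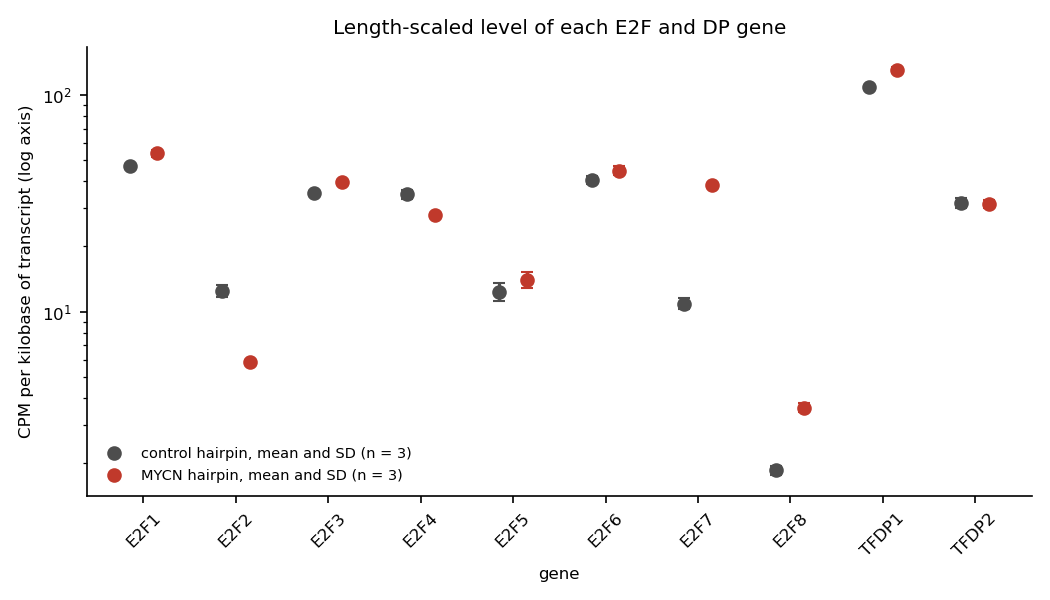
CPM per kilobase of transcript (log y axis) of each member with the control (grey) and MYCN hairpin (red), as mean and SD of 3 libraries; bars smaller than the symbols are hidden. E2F7 climbs from 10.9 to 38.2, next to E2F3, and E2F2 falls from 12.5 to 5.87.

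Summed by class, the activators changed little and the atypical repressors made up most of the added E2F transcript. E2F1, E2F2 and E2F3 together gave 96.8, 92.4 and 94.2 CPM per kilobase in controls and 97.0 to 101 CPM per kilobase with the MYCN hairpin, groups that lay close together. Without length scaling the activator sums overlapped, at 341 to 357 CPM in controls and 347 to 357 CPM with the MYCN hairpin. Within this sum the share of E2F2 went from 13.2% ± 0.596 to 5.92% ± 0.209 (SD, n = 3), that of E2F1 from 49.5% ± 0.393 to 54.1% ± 1.03 and that of E2F3 from 37.2% ± 0.875 to 40.0% ± 0.935. E2F4, E2F5 and E2F6 together gave 87.4, 87.2 and 88.8 CPM per kilobase in controls and 86.3, 83.6 and 90.4 CPM per kilobase with the MYCN hairpin, which overlapped. E2F7 and E2F8 together gave 13.3, 12.0 and 12.9 CPM per kilobase in controls and 41.8, 42.5 and 41.2 CPM per kilobase with the MYCN hairpin. Their share of all E2F transcripts was 6.53% ± 0.256 in controls and 18.4% ± 0.636 with the MYCN hairpin.

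The ratio of activating to all repressing E2F transcripts was 0.961, 0.931 and 0.927 in controls and 0.788, 0.769 and 0.760 with the MYCN hairpin. Without length scaling it was 1.199, 1.188 and 1.174 in controls and 0.778, 0.765 and 0.768 with the MYCN hairpin, so whether activators exceed repressors in controls depends on the lengths, while the ratio was lower with the MYCN hairpin either way. When only E2F4, E2F5 and E2F6 were counted as repressors, it was 1.11, 1.06 and 1.06 in controls and 1.17, 1.16 and 1.11 with the MYCN hairpin. These groups overlapped. Without length scaling that ratio was 1.58, 1.53 and 1.54 in controls and 1.58, 1.59 and 1.51 with the MYCN hairpin. The lower ratio was thus seen only when E2F7 and E2F8 were counted. E2F7 went from 10.9 to 38.2 CPM per kilobase and E2F8 from 1.85 to 3.61. DP transcripts per transcript of E2F1 to E2F6 went from 0.769 ± 0.00618 to 0.870 ± 0.00480 (SD, n = 3). These sums are descriptions of transcript level over members chosen with earlier results known, and no test was made of them.

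**Figure D4:**
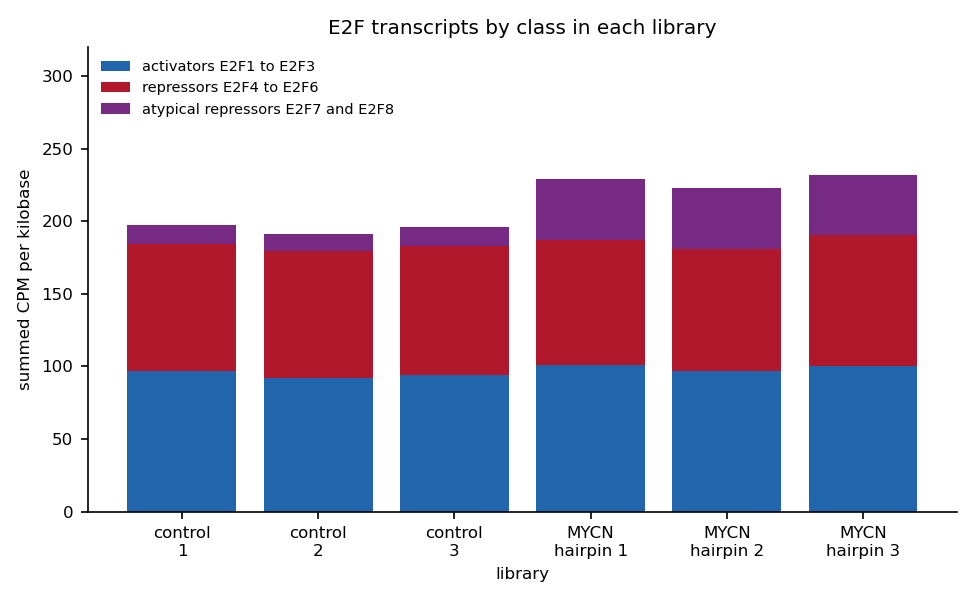
Summed CPM per kilobase (y axis, from 0) of activators (blue), E2F4 to E2F6 (red) and atypical repressors (purple) in each of the 6 libraries. The purple part rises from 12.0 to 13.3 in controls to 41.2 to 42.5 with the MYCN hairpin, while the blue and red parts stay near 92.4 to 101 and 83.6 to 90.4.

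The pocket proteins and CDK inhibitors, which hold E2F proteins in check, were called higher in 7 cases and lower in 0 of 9 tested (median log2 fold change 0.52). Of all tested genes, 38% were called higher and 37.9% lower, the shares to set beside this list and those below. RB1 transcript was present, at 96.1 ± 6.89 CPM in controls and 134 ± 3.46 with the MYCN hairpin (SD, n = 3; log2 fold change 0.48 ± 0.046, adjusted p = 1.7e-12). A count per gene does not show whether the transcript is intact. RBL1, which is itself an E2F target, rose by 0.23 ± 0.066 on the log2 scale (adjusted p = 0.00189). RBL2 stood at 0.10 ± 0.054 (adjusted p = 0.0842) and passed with upper quartile scaling (0.0175), with library sizes alone (1.6e-05) or without control replicate 3 (0.00595). The kinase inhibitor genes CDKN1A (303 ± 10.8 to 694 ± 40.7 CPM), CDKN2C (37.7 ± 1.06 to 85.5 ± 4.62 CPM) and CDKN1B (60.8 ± 2.67 to 87.3 ± 2.74 CPM) also rose. CDKN2B had 18 and 38 counts and was not tested.

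The list of G1 and S phase cyclins and kinases moved both ways, with 6 higher and 5 lower of 11 tested (median 0.19). It also holds the phosphatase gene CDC25A (log2 fold change 0.41) and SKP2 (0.19), which are among the 6 higher. All 3 cyclin D genes, whose products start the release of E2F by binding CDK4 or CDK6, fell, while CDK4 itself rose by 0.33 and CDK6 fell by 0.46 on the log2 scale. CCND1 went from 51.0 ± 1.58 to 10.7 ± 1.62 CPM, CCND2 from 217 ± 9.51 to 125 ± 1.41 CPM and CCND3 from 73.5 ± 0.315 to 48.6 ± 0.435 CPM (SD, n = 3). Both cyclin E genes, which are direct E2F targets and act later with CDK2, rose. CCNE2 went from 59.5 ± 2.13 to 280.5 ± 5.28 CPM (log2 fold change 2.24 ± 0.043, edgeR adjusted p = 1.3e-35) and CCNE1 from 37.6 ± 0.472 to 98.8 ± 3.51 CPM. CDK2 rose by 0.60, and CCNA2, the S phase cyclin A, fell by 0.53 on the log2 scale.

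Genes that E2F proteins switch on for S phase moved in both directions. Of 57 G1/S targets, 22 were called higher and 27 lower, with a median of -0.08. EZH2, a polycomb methyltransferase, rose from 153 ± 7.09 to 293 ± 1.99 CPM, RRM2, a subunit of ribonucleotide reductase, from 379 ± 5.22 to 647 ± 19.5 CPM, and TYMS, thymidylate synthase, from 427 ± 7.35 to 644 ± 5.66 CPM. MCM10 fell from 104 ± 5.53 to 54.7 ± 0.812 CPM, GINS1 from 102 ± 4.34 to 59.0 ± 2.09 CPM and POLD1 from 97.2 ± 4.37 to 61.8 ± 0.701 CPM, all 3 parts of the replication machinery. Of the 6 genes of the MCM2 to MCM7 helicase 5 fell, with a median of -0.34 over the 6, and MCM6 rose by 0.33. Among the subunits of the clamp loader RFC 2 of 4 were called higher and 1 lower (median 0.16), and among those of GINS 0 of 4 higher and 2 lower (median -0.14). Other replication genes rose, among them RPA1 by 0.50, POLE by 0.35 and the clamp PCNA by 0.23. With library sizes alone 28 targets were called higher and 20 lower and the median was 0.10, so the larger of both counts changes side with the scaling.

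**Figure D5:**
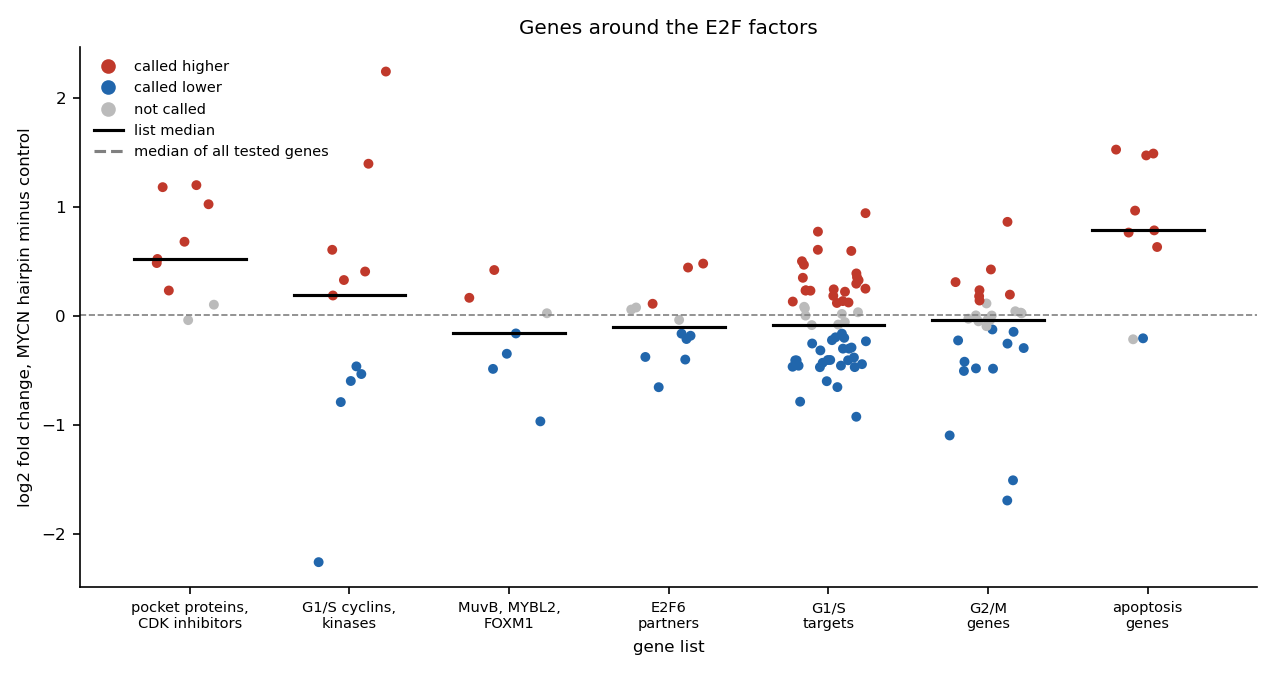
Log2 fold change (y axis, MYCN hairpin minus control) of the tested genes of 7 lists around the E2F factors; red points were called higher, blue lower and grey not called, and black bars are list medians. The bars of the pocket protein and apoptosis lists lie at 0.52 and 0.78, and those of the target lists near the median of all genes.

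The mitotic programme and its regulators were mixed as well. MuvB is the core complex that represses with E2F4 and RBL proteins in resting cells and activates with MYBL2 and FOXM1 in dividing cells. In this list 2 genes were called higher and 4 lower of 7 (median -0.16). RBBP4, a histone-binding subunit shared with other complexes, fell from 595 ± 16.8 to 304 ± 7.70 CPM, LIN52 fell by 0.49 and FOXM1 by 0.35 on the log2 scale. LIN54, the DNA-binding subunit, rose by 0.42. LIN9 stood at 0.16, a call that was lost without control replicate 2 (adjusted p = 0.101) or MYCN hairpin replicate 2 (0.0893). MYBL2 fell by 0.16 with TMM and stood at 0.020 with library sizes alone (adjusted p = 0.718).

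Of 30 G2/M genes, 7 were called higher and 12 lower (median -0.04). BIRC5, which encodes survivin, fell from 109.7 ± 3.29 to 33.9 ± 0.928 CPM, CKS1B, a CDK subunit, from 115 ± 7.17 to 40.6 ± 2.94 CPM and AURKB, a mitotic kinase, from 91.7 ± 4.08 to 42.9 ± 3.33 CPM. PRC1, a spindle midzone protein, rose by 0.86, TOP2A by 0.31 and KIF11 by 0.23. With library sizes alone 17 of these genes were called higher, so the split of this list rests on the scaling.

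The partners of E2F6 in its polycomb complex were called higher in 3 and lower in 6 of 12 cases (median -0.10), and with library sizes alone in 6 and 3. MAX, which is also the partner of MYCN, fell by 0.65, the scaffold gene MGA by 0.40 and YAF2 by 0.38 on the log2 scale. RYBP rose by 0.48 and HDAC1 by 0.44. WDR5 stood at 0.11, a call that was lost without control replicate 1 (adjusted p = 0.104), control replicate 3 (0.0737), MYCN hairpin replicate 2 (0.0795) or MYCN hairpin replicate 3 (0.0803), with DESeq2 (0.0575) and without a count filter (0.0533). Of 8 germ line genes that E2F6 complexes silence, only STAG3 had enough counts for a test and it was not called (log2 fold change -0.11 ± 0.135, adjusted p = 0.455). SMC1B had 8 and 29 counts, MAEL 4 and 13, and the others at most 6 in either group.

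Apoptosis genes linked to E2F1 were mostly higher, with 7 called higher and 1 lower of 9 tested (median 0.78, and 0.96 with library sizes alone). In comparison, 75.8% of all tested genes were called, 38% higher and 37.9% lower. TP53INP1, a p53 target, rose from 90.1 ± 6.07 to 259 ± 4.02 CPM and TP73, a p53 relative and direct E2F1 target, from 32.7 ± 0.903 to 90.6 ± 3.89 CPM (SD, n = 3). PPP1R13B stood at -0.21, a call that was lost without MYCN hairpin replicate 2 (adjusted p = 0.0547) or with library sizes alone (0.738). BBC3 was at -0.22 (adjusted p = 0.0536) and CASP8, with 5 and 32 counts, was not tested.

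Members were also checked for AGCACAA and GTGGATC, a pair of 7-base sequences that occur in MYCN and were picked from these fold changes in earlier work. The transcripts of the 10 members held neither of them in a 3′ untranslated region. E2F4 held AGCACAA once and E2F7 held GTGGATC once elsewhere in the transcript, and the part of these sequences in the changes was not tested.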

How the data were processed

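RNA of 6 Y79 libraries was poly(A)-selected after TRIzol extraction, per the labels. In the table the authors deposited, each gene symbol has estimated counts that were not scaled between libraries, and 12.5% to 12.8% of values are not whole. Reads were placed on GRCh38 according to the submitters' processing notes. Aligner, counter, annotation and strand setting: not given in the sources used here. Of 17035 rows, 22 without values were left out. Titles gave groups and replicate numbers. No replicates were identical (chi-square per degree of freedom 1.73 to 4.23), and the biological coefficient of variation was 3.35%. The p-values cover spread between these libraries.

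Counts were rounded and tested with edgeR 4.0.16 (R 4.3.3; quasi-likelihood, robust, TMM, filterByExpr with a minimum of 10 counts, Benjamini-Hochberg adjustment over 12819 genes at 0.05). The SE came from the F statistic. CPM is scaled by TMM factors. Alternatives were DESeq2 1.42.0, limma-voom (limma 3.58.1), other scalings and filters, a replicate block and leaving out each library. On simulated data for the MYCN against control hairpin comparison (12717 genes), edgeR recovered 62.7% of genes changed 1.2-fold and 97.0% of those changed 2-fold, and called 10 unchanged genes. These data had 200 changed genes, far fewer than the real comparison.

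Members and lists were chosen with earlier results of these data known. Text names all members, MYCN, RB1, RBL1, RBL2 and the 3 called genes with the smallest p in each direction of each list. Of these, 1 gene is not reported here. CCNA2, CDK4, CDK6, CDC25A, SKP2, MYBL2, the MCM genes and complexes, RPA1, POLE, PCNA, BBC3, the marker genes and genes too low to test were chosen after their values were seen. Lengths and loci are from GENCODE 29 (GRCh38), with 1 protein-coding transcript a gene, the principal one.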

Additional observations from a re-analysis of the deposited data

How the results depend on the processing

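Under the 14 alternatives E2F1, E2F2, E2F3, E2F4, E2F6, E2F7, E2F8 and TFDP1 kept their direction and call. E2F6 came closest to losing it (adjusted p up to 0.0473), and E2F5 lost it in 5 settings. TFDP2, not called in the main fit, changed sign with library sizes alone and was called higher (0.17). With a library left out it ranged from -0.05 to 0.02. MYBL2 also changed sign with library sizes alone (0.020), and its call was lost (edgeR adjusted p = 0.718). Library sizes alone also changed the count of called E2F6 partners to 6 higher and 3 lower, of G2/M genes to 17 higher and of apoptosis genes to 0 lower. The lower apoptosis genes numbered 2 without a filter and 2 with the replicate block, and 0 to 2 with a library left out. The higher MuvB genes numbered 1 to 2 with a library left out. The difference in the ratio of activating to repressing transcripts between hairpins was -0.17, and -0.42 without length scaling. The share of E2F7 and E2F8 differed by 11.8 percentage points, and by 17.9 without length scaling. Settings that changed a value did so by their construction or for a cause that was not tested.

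The main fit did not pair libraries by replicate number. Same-numbered libraries had correlations of deviations of 0.0267 to 0.121, and 5 of 6 libraries correlated best with their own number. With the replicate block, 4968 genes were called higher and 4941 lower against 4865 and 4858, and members stayed at 7 and 2.

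E2F8, with 291 counts over the controls, had the least depth. Class sums rest on 1 transcript length a gene, and isoforms were not measured.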
